A study of Mus musculus with 6 samples.

Results

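Fibronectin and the tenascins are glycoproteins of the extracellular matrix, and their genes Fn1, Tnc and Tnxb, 3 of 203 named genes, were represented by 4 of the 223 probes on expression arrays of mouse soleus muscle. The members were all probes that the platform annotation assigns to these symbols: 2 for Fn1, called 9D and 4D on the platform, and 1 each for Tnc and Tnxb. The soleus, a postural muscle of the hindlimb, came from C57Bl/6 mice titled wild type and had been reloaded for 1 day. Each of the 6 samples, replicates 1 to 6, was put on 1 array after RNA extraction from cryosections, with 3 micrograms of total RNA per sample. The titles carry the letters HUR, which the labels do not explain, and the age of the mice, the unloading before reloading and any other treatment are not given in the sources used here. There was 1 group, so the values describe levels and their spread between samples. Nothing states that the samples came from separate animals, so the spread may be partly technical. The p-values come from re-pairing the values of these 6 arrays and do not measure variation between animals. In whole muscle RNA, fewer cells of a type and less RNA per cell cannot be told apart.

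Fibronectin is secreted as a dimer, and cells stretch it into fibrils through integrin receptors on their surface. These fibrils bind collagens and growth factors and form much of the early matrix at sites of tissue repair. Tenascin-C, encoded by Tnc, is a large multi-armed protein that modulates how cells adhere to fibronectin. It is scarce in most adult tissues, persists in tendon and at the junction of muscle and tendon, and is known to respond to mechanical load and injury. Tenascin-X, encoded by Tnxb, is a protein of mature connective tissue that associates with collagen fibrils, and its loss causes a form of Ehlers-Danlos syndrome with lax joints and skin.

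The arrays differed greatly in overall signal, and this bears on every value below. The deposited intensities, assumed to be linear and of unstated unit, summed to 165.3 on replicate 1. They summed to between 35.2 and 41.3 on replicates 2 to 5 and to 13.8 on replicate 6, an 11.9-fold span. The size of the most negative value on an array served as its noise bound. Replicate 1 had the largest bound, 0.0144, and the other arrays had bounds of 0.0011 to 0.0028. For comparison between arrays, the log2 intensity was centred on the median of the 175 probes above 0 on all 6 arrays, so that 0 means the median probe of that array. Levels of different probes are not read as relative transcript abundance. Markers of the labelled tissue were present: 7 of 10 listed muscle fibre genes were measured (Myh7, Myh2, Myh1, Myh4, Des, Ttn and Mb), and all 7 exceeded the noise bound on all arrays. Of other cell types, 2 of 8 fibroblast and interstitial markers and 5 of 7 endothelial markers were measured, all above the bound on all arrays. Of 8 myeloid and inflammatory markers only Il1b and Il6 were measured, and neither exceeded the bound on any array. The listed markers of smooth muscle, nerve and tendon were not among the named genes measured.

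Of the 4 member probes, 3 exceeded the noise bound on every array: Fn1 probe 9D, Tnc and Tnxb. The second Fn1 probe, 4D, did so on 3 of 6. The deposited intensity of Fn1 probe 9D was 0.3041, 0.0588, 0.1314, 0.1019, 0.0868 and 0.0256 on replicates 1 to 6. These values lay between 21.1 and 72.8 times the bound of their array. Fn1 probe 4D read 0.0005, -0.0009, 0.0050, 0.0044, 0.0012 and 0.0017 on the same arrays. It was above 0 on 5 of 6 arrays and above the bound on replicates 3, 4 and 6, where it reached 1.92, 3.14 and 1.55 times the bound. Tnc read 0.0407, 0.0199, 0.0224, 0.0378, 0.0331 and 0.0210, from 2.83 times the bound on replicate 1 to 27.0 times on replicate 4. Tnxb read 0.1771, 0.0323, 0.0459, 0.0594, 0.0403 and 0.0258, from 12.3 to 42.4 times the bound. Replicate 1, the brightest array, held the highest deposited value of Fn1 probe 9D, Tnc and Tnxb, while the lowest fell on replicate 6 for Fn1 and Tnxb and on replicate 2 for Tnc.

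**Figure D1:**
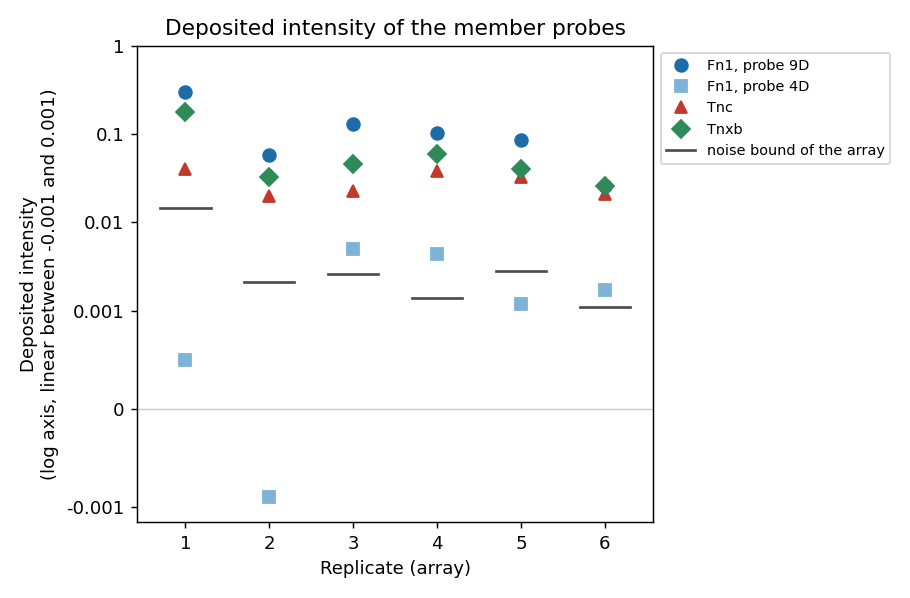
Deposited intensity of the 4 member probes on each of the 6 arrays, on a log axis that is linear between -0.001 and 0.001, with the noise bound of each array as a short bar. Fn1 probe 9D, Tnc and Tnxb lie above the bound on all arrays, and Fn1 probe 4D only on replicates 3, 4 and 6.

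The 2 Fn1 probes are annotated with the same nucleotide record yet gave very different signals. Where probe 4D exceeded the bound, probe 9D was 26.3 times as bright on replicate 3, 23.2 times on replicate 4 and 15.1 times on replicate 6. Where it did not (replicates 1, 2 and 5), probe 9D was between 21.1 and 31.0 times the bound. The ratio of the 2 probes could not be measured there, since noise could raise or lower the probe 4D reading. The 2 highest readings of probe 4D, in deposited units, fell on replicates 3 and 4. Probe 9D had its 2 highest levels there after median centring, but on replicates 1 and 3 in deposited units. Probe 4D also exceeded the bound on replicate 6, where probe 9D was lowest on both scales. These readings are too few to show whether the 2 probes varied in parallel. On replicate 1 the bound exceeded every reading of probe 4D on any array, so its order there is not known. Fn1 levels below are those of probe 9D, and no range or correlation was computed for probe 4D. The other gene with 2 probes, Igf1, exceeded the bound with both of them on all 6 arrays, but these are annotated with different nucleotide records.

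Relative to the median probe of its array, Fn1 was highest in replicate 3 and lowest in replicate 6. Its median-centred log2 intensity was 2.23, 1.97, 3.09, 2.64, 2.36 and 1.37 on replicates 1 to 6, with a mean of 2.28 ± 0.59 (SD, n = 6). The span was 3.30-fold, and 3.10-fold remained after allowing noise of the size of the bound at both ends. Without replicate 6 the span was 2.16-fold. The summed level of the 7 muscle fibre markers was lowest in replicate 6 as well, at 178 times the median probe, against a median of 345 and a highest value of 465 in replicate 1. The part of this in the Fn1 value was not tested. With an SD of 0.59, Fn1 varied about as much as the typical probe, whose median SD was 0.64, and stood 78th from the smallest among 175.

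Tnc showed a different order of samples, with its lowest level in replicate 1. The gap from replicate 1 to the next array was 0.572 of the range, under the critical 0.625 for an outlier among 6 values. Its median-centred log2 intensity was -0.67, 0.41, 0.54, 1.21, 0.97 and 1.08 on replicates 1 to 6, with a mean of 0.59 ± 0.69 (SD, n = 6). Replicates 4, 5 and 6 were the highest, and the lowest, replicate 1, was the array with the highest deposited value. The span was 3.69-fold with all arrays and 1.71-fold without replicate 1. Tnc on replicate 1 was only 2.83 times the bound, so its value there could lie between -1.30 and -0.23 within the noise, which is still below every other array, and a 2.62-fold span remained. The 2 fibroblast and interstitial markers (Pdgfra and Pdgfrb) and the 5 endothelial markers also had their lowest summed levels in replicate 1. These sums ranged from 1.47 to 1.77 and from 7.35 to 14.3 times the median probe. Their members did not share this order: Pdgfrb, Flt1 and Pecam1 were lowest in replicate 1, but Kdr and Tek were lowest in replicate 2, Pdgfra in replicate 5 and Cdh5 in replicate 6. Their part in the Tnc value was not tested.

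Tnxb was the most even member after centring. Its median-centred log2 intensity was 1.45, 1.11, 1.58, 1.87, 1.25 and 1.38 on replicates 1 to 6, with a mean of 1.44 ± 0.26 (SD, n = 6). Replicate 4 was highest and replicate 2 lowest, a 1.69-fold span, of which 1.55-fold remained after the allowance for noise. Within the noise, replicate 4 stood above all other arrays, but replicate 2 could not be separated from replicate 5. The SD of 0.26 was the 9th smallest of 175 probes.

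**Figure D2:**
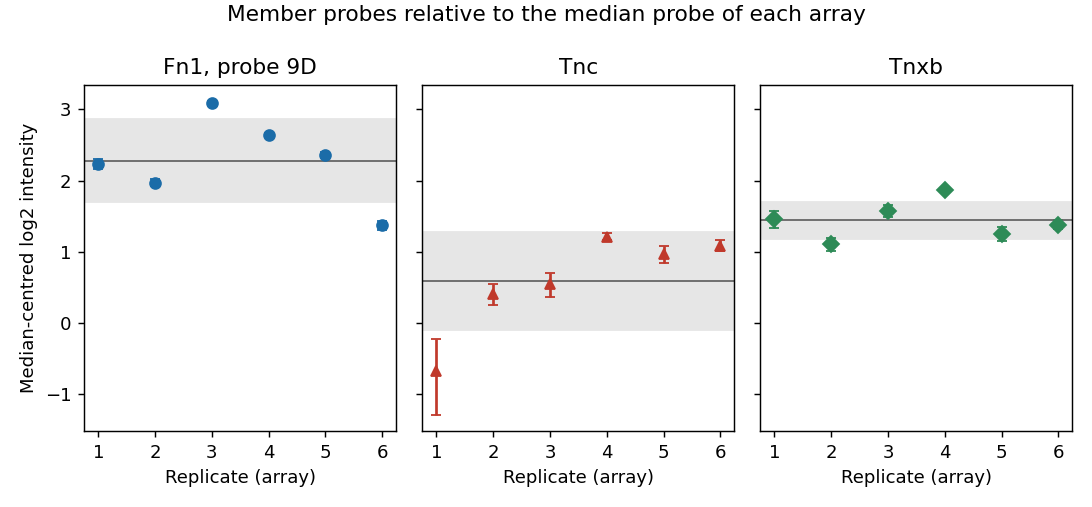
Median-centred log2 intensity of Fn1 probe 9D, Tnc and Tnxb on each of the 6 arrays, with whiskers for noise of the size of the array's bound, the mean as a line and ± 1 SD as a grey band. Fn1 is lowest on replicate 6, Tnc on replicate 1, and Tnxb keeps within 1.69-fold.

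Which of the 3 genes looked steady depended on the scaling between arrays. In deposited units, with no scaling, Tnc spanned only 2.05-fold while the summed intensity of the arrays spanned 11.9-fold. Its SD was then the 3rd smallest of 175 probes, against the 95th after centring. For Tnxb the change went the other way, from a 1.69-fold span and the 9th smallest SD after centring to 6.86-fold and the 56th without scaling. Fn1 spanned 11.9-fold without scaling, close to the span of the summed intensity. Scaled to the 28S ribosomal RNA probe of the same array, the spans were 5.58-fold for Fn1, 3.60-fold for Tnc and 3.66-fold for Tnxb. After quantile normalization they were 2.63-fold, 3.31-fold and 1.70-fold. The lowest Fn1 level fell on replicate 6 under all of these scalings, whereas the highest was replicate 3 after centring or quantile normalization and replicate 1 in deposited units or relative to 28S. Tnc was lowest on replicate 1 after centring or quantile normalization, but on replicate 2 in deposited units or relative to 28S. Tnxb was lowest on replicate 2 after centring or relative to 28S, on replicate 5 after quantile normalization and on replicate 6 in deposited units.

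Each gene was set against the brightness of the arrays, taken as the log2 of the summed intensity, in 6 relations over the 6 arrays. The p-values in brackets are exact two-sided permutation values, first as computed and then adjusted over the 6 relations, and 0 of 6 passed. After centring, Tnc was lower on brighter arrays, with Pearson's r of -0.88 (exact p = 0.0375, 0.075 adjusted) and a Spearman's rho of -0.89 (exact p = 0.0333, 0.20 adjusted). Replicates 1 and 6 lay farthest from the median brightness, and r was -0.72 when they were left out. With brightness taken as the median probe, r stayed at -0.88 (exact p = 0.0792, 0.119 adjusted) but rho was -0.31 (exact p = 0.564, 0.658 adjusted), so the rank order did not hold under that measure. Centring subtracts the log2 median of the array. A probe as even in deposited units as Tnc (2.05-fold) then tends to fall on brighter arrays by construction. The negative values therefore show nothing particular about Tnc beyond that evenness. Centred Fn1 gave r = 0.38 (exact p = 0.45, 0.54 adjusted), a rho of 0.31 (exact p = 0.564, 0.677 adjusted) and r = 0.56 without these arrays. Centred Tnxb gave r = 0.071 (exact p = 0.928, 0.928 adjusted), a rho of 0.029 (exact p = 1.00, 1.00 adjusted) and r = -0.025 without them. An unscaled intensity carries the brightness of its array by construction, so a positive r in deposited units says nothing particular about a gene. In those units r was 0.94 for Fn1 (exact p = 0.0222, 0.0667 adjusted), 0.63 for Tnc (exact p = 0.167, 0.25 adjusted) and 0.93 for Tnxb (exact p = 0.0208, 0.0667 adjusted). The rho values in deposited units were 0.77, 0.31 and 0.60 (exact p = 0.103, 0.564 and 0.242; adjusted 0.308, 0.677 and 0.483). When replicates 1 and 6 were left out those r values became 0.44, -0.72 and -0.16. The arrays left, replicates 2 to 5, had summed intensities of only 35.2 to 41.3. With so narrow a range of brightness, r without replicates 1 and 6 cannot show whether a relation held, centred or deposited.

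A ratio of 2 genes on the same array does not depend on any factor that multiplies the whole array, so its spread does not rest on the scaling. Noise or background added to a value does not cancel, and no allowance for noise was made in the ratios. Fn1 and Tnc did not keep a constant ratio. The log2 ratio of Fn1 to Tnc deviated from its own mean by 1.21, -0.12, 0.86, -0.26, -0.30 and -1.40 on replicates 1 to 6, high on replicates 1 and 3 and low on replicate 6. Its span was 6.13-fold (SD 0.93 log2 units, n = 6), 2.85-fold without replicate 6 and 4.81-fold without replicate 1. On replicate 1, where this ratio was highest and that of Tnc to Tnxb lowest, Tnc was only 2.83 times the bound. For Fn1 to Tnxb the deviations were -0.059, 0.025, 0.68, -0.061, 0.27 and -0.85, so that 3 arrays lay close to the mean, with replicate 3 above and replicate 6 below. That ratio spanned 2.89-fold (SD 0.50), and 1.67-fold without replicate 6. For Tnc to Tnxb they were -1.27, 0.15, -0.19, 0.20, 0.56 and 0.55, a 3.57-fold span (SD 0.68) that was 1.68-fold without replicate 1. Over all 8385 pairs of probes above the bound on all arrays the median SD of such a ratio was 0.75. A smaller SD was found in 64.8% of these pairs than for Fn1 to Tnc, in 23.2% than for Fn1 to Tnxb and in 44.2% than for Tnc to Tnxb.

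**Figure D3:**
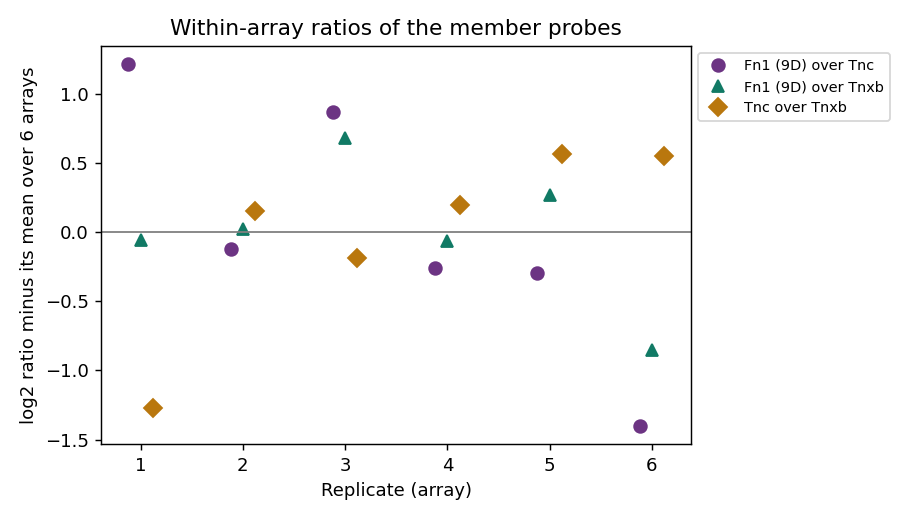
Deviation of each within-array log2 ratio from its mean over the 6 arrays, for Fn1 probe 9D over Tnc, Fn1 probe 9D over Tnxb and Tnc over Tnxb. Both ratios with Fn1 are lowest on replicate 6, and Tnc over Tnxb is lowest on replicate 1, where Fn1 over Tnc is highest. No allowance for noise is drawn, and Tnc on replicate 1 is only 2.83 times the bound.

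Correlations between the genes over the 6 arrays were computed for 3 pairs, with the same exact two-sided permutation test and adjustment over the 3, and 0 of 3 passed after median centring. Fn1 with Tnxb gave r = 0.52 (exact p = 0.269, 0.808 adjusted) and a rho of 0.66 (exact p = 0.175, 0.525 adjusted). Replicates 3 and 6 lay farthest from the Fn1 median, and r was 0.88 when they were left out. Fn1 with Tnc gave r = -0.057 (exact p = 0.889, 0.889 adjusted) and a rho of 0.14 (exact p = 0.803, 0.803 adjusted), and r = 0.55 when the same arrays were left out. Tnc with Tnxb gave r = 0.22 (exact p = 0.649, 0.889 adjusted) and a rho of 0.37 (exact p = 0.497, 0.746 adjusted), and r = 0.13 when replicates 1 and 4 were left out. In deposited units, where all probes share the brightness of the array, r was 0.91 for Fn1 with Tnxb (exact p = 0.00972, 0.0292 adjusted) and 0.78 for Tnc with Tnxb (exact p = 0.0208, 0.0312 adjusted). Their rho values were 0.94 and 0.89 (exact p = 0.0167 and 0.0333, 0.05 adjusted for both). With 6 arrays, a p above the threshold does not show that genes were unrelated.

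The genes most parallel to each member were then ranked by the SD of their within-array log2 ratio to it, over 6 arrays and 120 other named genes above the bound on all of them. These are descriptions of the closest of many genes and carry no test. For Tnc the closest was Lamb2, the laminin beta-2 chain of the muscle and synaptic basement membrane, with an SD of 0.10 and a 1.17-fold span of the ratio, against a median SD of 0.96 over the 120 genes. Lamb2 read 0.0365, 0.0157, 0.0172, 0.0299, 0.0297 and 0.0183 in deposited units on replicates 1 to 6. Like Tnc, it was lowest on replicate 1 after centring, and there it was only 2.53 times the bound. Lamb2 stayed first with each replicate left out in turn, replicate 1 included (SD from 0.094 to 0.11), and after quantile normalization. With replicates 1 and 6 both left out it was second to Igfbp6. Among all 7503 pairs of 123 named genes, 2 pairs were closer than Tnc and Lamb2. The next genes after Lamb2 were Igfbp6, an IGF-binding protein (SD 0.30), and Egfr, the epidermal growth factor receptor (SD 0.35).

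For Tnxb the closest gene was Tgfb1, a growth factor that induces matrix genes, with an SD of 0.11 and a 1.18-fold span of the ratio, against a median of 0.60. Tgfb1 read 0.0834, 0.0174, 0.0249, 0.0285, 0.0224 and 0.0125 on replicates 1 to 6, at least 5.79 times the bound. After centring both were highest in replicate 4 and lowest in replicate 2. Tgfb1 stayed first with each replicate left out in turn (SD from 0.098 to 0.11). It was second to Itgb5 after quantile normalization (SD 0.20) and held place 3 when replicates 1 and 6 were both left out. Among the 7503 pairs, 3 were closer. The next were Itgb5, an integrin chain (SD 0.19), and Kdr, the main VEGF receptor of endothelium (SD 0.20). Since Tnxb itself varied little after centring, other even genes also ranked close to it.

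For Fn1 the closest genes were Timp1 (SD 0.21) and Timp2 (SD 0.22), both inhibitors of matrix metalloproteinases, followed by Rps29, a ribosomal protein gene (SD 0.23), against a median of 0.61. After centring, all 3 had their highest level in replicate 3 and their lowest in replicate 6, as Fn1 did. So did 19 of the 120 genes, the fibre marker Myh4 among them. The order among them was not stable. Leaving out single replicates put Rps29, Hif1a, Lama4, Igfbp5, Aldoa or Timp2 first, while Timp1 and Timp2 stayed within the first 5 places. With replicates 1 and 6 both left out, Slc2a4 was first, Rps29 held place 2, Timp2 place 3 and Timp1 place 6. After quantile normalization Timp2 held place 1, Timp1 place 2 and Rps29 place 7. Of the 123 genes, 65 had a closer neighbour than Fn1 had, whereas 4 had a closer one than Tnc and 6 a closer one than Tnxb. Among 122 genes ranked by closeness to Fn1, Tnxb held place 39 and Tnc place 91.

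**Figure D4:**
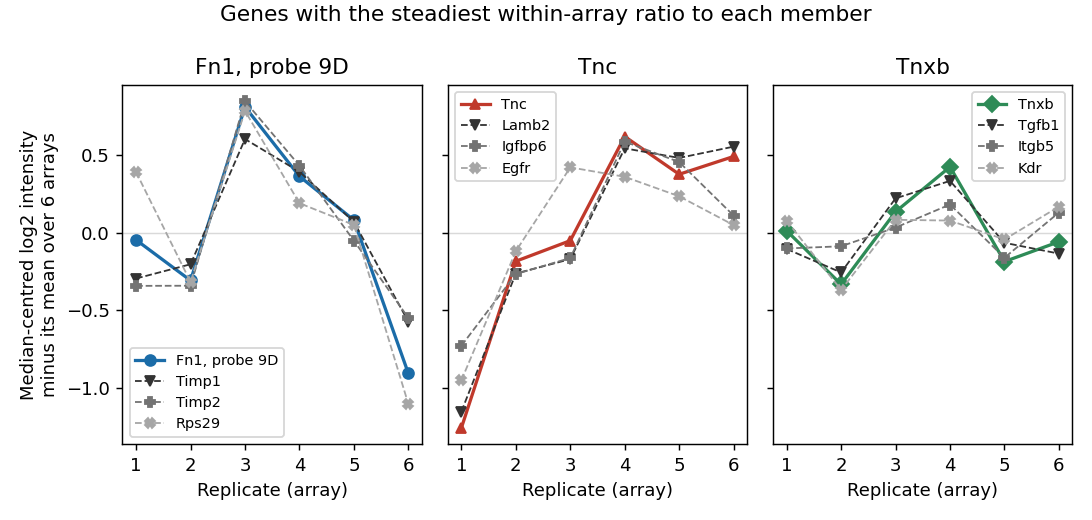
Median-centred log2 intensity minus its mean over the 6 arrays for Fn1 probe 9D, Tnc and Tnxb, each with the 3 genes of steadiest ratio to it. Lines join the points of a gene only to guide the eye, since replicates have no order; Lamb2 follows Tnc within 1.17-fold and Tgfb1 follows Tnxb within 1.18-fold.

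Receptors for these proteins were only partly measured. Of 17 listed genes for receptors of fibronectin or tenascin-C, 6 were measured, and 3 exceeded the bound on all arrays. Itgb1, the beta-1 integrin chain shared by most fibronectin receptors, spanned 3.86-fold after centring, highest in replicate 1 and lowest in replicate 6. Itgb5, a partner of the alpha-v chain, was steady at 1.27-fold, and Egfr spanned 2.60-fold with its lowest level in replicate 1. Itga8, an alpha chain that binds both fibronectin and tenascin-C, exceeded the bound on 5 of 6 arrays. With the reading under the bound set to the bound, Itga8 spanned 9.31-fold. Itgav, the alpha-v chain, exceeded the bound on 3 of 6 arrays and the collagen-binding chain Itga2 on 0 of 6. The median SD of the ratio to Fn1 over the 3 bright receptors was 0.63, against 0.61 over all 120 genes. For the ratio to Tnc it was also 0.63, against 0.96, and for that to Tnxb 0.50, against 0.60. Egfr had already ranked among the 3 genes closest to Tnc, and Itgb5 among the 3 closest to Tnxb.

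Among 24 listed inducers and upstream factors, 11 were measured and 5 exceeded the bound on all arrays: Tgfb1, Srf, Pdgfb, Pdgfrb and Jun. Srf, a transcription factor that responds to actin and load, spanned 3.49-fold and was highest in replicate 6, where Fn1 was lowest. Pdgfb, a growth factor for mesenchymal cells, spanned 4.09-fold and, like Fn1, had its lowest level in replicate 6. Its receptor Pdgfrb and the AP-1 subunit Jun stayed within 1.32-fold and 1.31-fold. Fgf2, Pdgfa, Il1b and Il6 exceeded the bound on 0 of 6 arrays, Hgf on 2 and Fosl1 on 4. The 5 bright genes had a median SD of the ratio to Tnxb of 0.28, against 0.60 over all 120 genes. They include Tgfb1, already ranked closest to Tnxb, and the even genes Jun (0.27) and Pdgfrb (0.28). Srf and Pdgfb were not close, at 0.59 and 0.81. To Fn1 and Tnc the medians were 0.65 against 0.61 and 0.65 against 0.96. Medians of the marker lists were similar in part. The 5 endothelial markers had 0.29 to Tnxb and 0.59 to Tnc. The 2 fibroblast and interstitial markers had 0.49 and 0.78, and the 7 muscle fibre markers 0.53 and 1.16.

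Of 19 listed proteases and inhibitors that act on the matrix or the fibre, 12 were measured, and 4 exceeded the bound on all arrays: Timp1, Timp2, Timp3 and the membrane-bound metalloproteinase Mmp14. Their median SD of the ratio to Fn1 was 0.31, against 0.61 over all 120 genes, with Mmp14 at 0.40 and Timp3 the widest at 0.63. Timp1 and Timp2 had already ranked closest to Fn1 among the 120 genes, so this median repeats that ranking and is not separate from it. The medians to Tnc and Tnxb were 0.75 against 0.96 and 0.43 against 0.60. Timp3, which is held in the matrix, spanned 4.50-fold and was highest in replicate 1. Mmp3 and Mmp9, secreted proteases able to cleave fibronectin, exceeded the bound on 0 of 6 arrays. The gelatinase Mmp2 and the urokinase gene Plau exceeded it on 5 of 6, and the plasminogen gene Plg and the urokinase receptor Plaur on 4 of 6.

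Of 30 other listed matrix proteins, 9 were measured, which were 7 laminin chains and 2 thrombospondins, and 5 exceeded the bound on all arrays. Thbs1, a matricellular protein that activates latent TGF-beta, spanned 4.87-fold and was lowest in replicate 6. Lamc1, the common gamma chain of laminins, spanned 5.67-fold, highest in replicate 1 and lowest in replicate 6. Lama4 and Lama5, alpha chains of vascular laminins, spanned 2.11-fold and 1.97-fold. The 5 genes had a median SD of the ratio of 0.56 to Fn1, against 0.61 over all 120 genes, 0.84 to Tnc against 0.96, and 0.68 to Tnxb against 0.60. Lamb2 was far closer to Tnc than the other 4, whose SDs to Tnc lay between 0.74 and 1.48. The listed collagens, Sparc, Dcn, Postn and the tenascins Tnr and Tnn were not among the named genes measured.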

How the data were processed

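The values were intensities as deposited, for 223 probes on each of 6 arrays. How the arrays were scanned, background-corrected or normalized is not given in the sources used here. These intensities extend below 0 and do not share a total, and they were assumed to be linear. Probes were named from the platform annotation, which gives 205 probes a gene and leaves 18 unnamed. Values above 0 on all arrays (175 probes) were converted to log2 without a pseudocount and centred on the median of each array. A fold is 2 to the power of a difference in log2. The noise bound is the size of the most negative value on an array; 130 probes exceeded it on all arrays. The 28S probe carries values in whole hundredths, so values scaled to it rest on a probe that may have been measured differently. Correlations used exact two-sided permutation tests over all 720 pairings, adjusted by Benjamini and Hochberg within each family of 3 or 6 relations at a threshold of 0.05. Alternatives were no scaling, 28S scaling, quantile normalization, noise filters and leaving out replicates. Named genes were the members, the listed genes and the 3 genes of steadiest ratio to each member; others were named after their values were seen. For Fn1 and Igf1, the probe of higher mean intensity stood for the gene. The members and lists were chosen with earlier results of these data known. The ranking of steady ratios was also run on 100 simulated data sets of 123 genes, with 99.0% recovered. That checks the search on simulated data only and does not show that ranks on these arrays are stable. Python 3.11.15, numpy 2.4.6, pandas 2.3.3 and scipy 1.17.1 were used.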

Additional observations from a re-analysis of the deposited data

Results flagged for a closer look

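Of 10 sets of 6 values (deposited and centred values of the members and their ratios), 1 had an extreme sample separated from its neighbour by more than 0.625 of the range, and chance gives about 1 in 20. This was the deposited intensity of Tnxb, where the gap between replicate 1 (0.1771) and the next array was 0.778 of the range. Replicate 1 was also the array with the highest summed intensity, 165.3. After median centring Tnxb on replicate 1 was 1.45, near the mean of 1.44.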

How the results depend on the processing

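No paired analysis was possible because there is only 1 group. Without scaling, the spans were 11.9-fold (Fn1), 2.05-fold (Tnc) and 6.86-fold (Tnxb), and relative to 28S 5.58-fold for Fn1 and 3.66-fold for Tnxb. The correlation of Fn1 and Tnc turned from -0.057 to 0.692 without scaling, 0.437 relative to 28S, 0.134 without replicates 1 and 6 and 0.545 without replicates 3 and 6. Without scaling, r passed the threshold for Fn1 and Tnxb (0.911) and for Tnc and Tnxb (0.783). For Fn1 and Tnxb, r was 0.871 relative to 28S and 0.249 after quantile normalization, and neither passed. With brightness taken as the median probe, deposited Tnc (r = 0.692) and Tnxb (r = 0.963) passed it, each with an adjusted exact permutation p of 0.0333, on a scale where each probe carries the brightness by construction. Leaving out each replicate in turn gave spans of 2.16 to 3.30 (Fn1), 1.71 to 3.67 (Tnc) and 1.38 to 1.69 (Tnxb). Spans of the ratios were then 2.85 to 6.13 (Fn1 to Tnc), 1.67 to 2.89 (Fn1 to Tnxb) and 1.68 to 3.57 (Tnc to Tnxb). Correlations ranged from -0.258 to 0.328 (Fn1 and Tnc), 0.463 to 0.669 (Fn1 and Tnxb) and -0.227 to 0.523 (Tnc and Tnxb). With brightness, centred values ranged from -0.236 to 0.816 (Fn1), -0.94 to -0.528 (Tnc) and 0.02 to 0.228 (Tnxb), and deposited ones from 0.896 to 0.962, 0.308 to 0.755 and 0.703 to 0.969. Without replicate 4 the brightness relations of centred Tnc (r = -0.94), deposited Fn1 (r = 0.953) and deposited Tnxb (r = 0.954) reached an adjusted exact permutation p of 0.05. Without replicates 1 and 6, chosen after seeing the data, spans were 2.17 (Fn1) and 1.70 (Tnc), and those of the ratios 2.24, 1.67 and 1.68 in the same order. Of the mean levels, 5 of 30 alternative values moved by over 1 SD, all under another choice of probes for the median. The causes were not tested. Tnc on replicate 1 and Fn1 probe 4D were limited by signal over background.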
